A study of Homo sapiens with 6 samples.

Results

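The G1 cyclins, the cyclin-dependent kinases (CDKs) they activate and their CIP/KIP inhibitors were examined in K562 cells in which METTL3 or METTL14 had been knocked down. The 10 genes CCND1, CCND2, CCND3, CDK4, CDK6, CCNE1, CCNE2, CDK2, CDKN1A and CDKN1B were taken by name, through the Ensembl identifiers of the count table, and each matched 1 of its 61661 rows. All 10 also passed the filter on low counts, which left 17686 genes for testing. K562 is an established chronic myeloid leukemia line from a pleural effusion, and METTL3 and METTL14 are the 2 core subunits of the complex that writes N6-methyladenosine (m6A) on mRNA. The libraries fell into 3 groups of 2: shCTR cells, labelled WT and carrying a lentiviral hairpin of nonsense sequence, shMETTL3 cells and shMETTL14 cells. The shCTR and shMETTL3 lines were selected with puromycin as stable lines, and a single METTL3 hairpin was described. The sources used here give neither the METTL14 hairpin nor whether lines were clones. The labels do not say that replicates came from separate cultures, so p-values measure only the spread between these libraries, which may be technical.

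In G1, mitogen-driven D-type cyclins bind CDK4 or CDK6 and begin to phosphorylate RB, which holds E2F transcription factors in check. Released E2F factors switch on E-type cyclins, which bind CDK2 and carry the cell into S phase. The CIP/KIP proteins p21, made from CDKN1A, and p27, made from CDKN1B, inhibit cyclin E-CDK2, while they also help to assemble D-type cyclins with their kinases. K562 cells are known to have lost the locus of the CDK4 and CDK6 inhibitors CDKN2A and CDKN2B.

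The 6 libraries held between 19292574 and 20115304 counts, and the 10 members between 119 counts for CCNE2 and 7513 counts for CCND3 in any library. Levels are given as CPM (counts of a gene relative to the library total), scaled by TMM factors. Intervals cover the spread between libraries in the fit, and reads carried no molecular identifiers. METTL3 averaged 90.4 CPM in shCTR and 49.6 CPM in shMETTL3, and METTL14 averaged 33.7 CPM in shCTR and 19.8 CPM in shMETTL14, so each targeted transcript was lowered and not absent. All 10 erythroid markers on the list for K562 had at least 10 counts in every library. Their summed level was 1759 to 1763 CPM in shCTR, 1953 CPM in both shMETTL3 libraries and 1760 to 1776 CPM in shMETTL14. TFRC, at 740 to 894 CPM, held the largest part of this sum. At an edgeR adjusted p under 0.05, 4 of the 10 rose and 1 fell in shMETTL3, and 2 rose and 0 fell in shMETTL14. These were 50% and 20% of the list, against 16.5% and 6.69% of all tested genes. Of 8 monocytic markers, 6 had at most 3 counts in every library, and the summed level of all 8, nearly all of it LYZ, was 42.8 to 44.4 CPM in shCTR, 16.0 to 17.4 CPM in shMETTL3 and 60.5 to 66.1 CPM in shMETTL14. The 5 lymphoid markers summed to 5.87 to 6.27 CPM, 8.81 to 9.47 CPM and 6.46 to 7.14 CPM in the same order. The part of these shifts in the results on the members was not tested.

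The stem of the METTL3 hairpin is shown because it defines the shMETTL3 cells. The 2 cyclin windows were chosen after the calls were seen, because both cyclins were called lower in shMETTL14. Both windows carry the same m6A-type motif at the same exon junction. CCND1 was called higher in shMETTL3, and any part of the motif in these changes was not tested. In the stem, capitals mark the 7 bases that pair with the seed of the guide strand. In the windows, capitals mark GGACT, one of the sequences that the methyltransferase prefers. The windows are reference sequence, 5′ to 3′.
METTL3 hairpin stem: gccaaggaacaatCCATTGTt
CCND1 window: caagtgtgacccGGACTgcctccgggcctg
CCND3 window: tggcactgaagtGGACTgcctgcgggcctg

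The stem matched 5 GENCODE transcripts, all of METTL3, in coding exon 4 of 11 of ENST00000298717.8 on the minus strand at chr14:21501844-21501864 (GRCh38). It was absent from the transcripts of all 10 members. The seed match alone, CCATTGT on the sense strand, occurred in 4 members, CCND3, CDK4, CDK6 and CCNE2, and in 21.6% of the transcripts of the tested genes. Both cyclin windows span the junction of the last 2 of 5 exons within the coding sequence, at chr11:69648130-69651134 on the plus strand for CCND1 and at chr6:41936091-41936571 on the minus strand for CCND3. They are identical at 20 of 30 bases. GGACT, searched on the sense strand of each gene's transcript, occurred at least once in all 10 members, against 92.2% of the 12512 transcripts examined. Members ranged from 0.376 GGACT per kb in CDKN1B to 1.31 per kb in CDK2, with CCND1 at 0.929 per kb, and the median of all transcripts was 0.933 per kb. CCND1 held 4 GGACT matches, 1 of them coding, and CCND3 held 2, both coding. The window of the other CCND3 match spanned exons 2 and 3. That of a coding match in CDK6, which was not called, spanned exons 6 and 7. A match is a description of the letters and not a measured m6A site.

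Among the D-type cyclins, CCND1 stood apart: it rose in shMETTL3 and fell in shMETTL14. CCND1 (ENSG00000110092, chr11:69641087-69654474, plus strand) encodes cyclin D1. It had 726 and 780 counts in shCTR, 1000 and 1098 in shMETTL3, and 428 and 350 in shMETTL14. These were levels of 36.7 and 40.7 CPM in shCTR, 50.9 and 54.7 CPM in shMETTL3, and 21.8 and 17.9 CPM in shMETTL14. Both shMETTL3 libraries lay above both shCTR libraries, both shMETTL14 libraries lay below them, and no groups overlapped. The groups of CCND2, CCND3, CDK2 and CDKN1A did not overlap either, so such separation was not particular to CCND1. Its share over all tested genes was not computed, so these separations are not read as a result about the members. Some gaps were narrow: 113.16 CPM in shMETTL3 against 113.03 CPM in shMETTL14 for CCND2. For CDK2 they were 81.48 CPM in shMETTL3 against 81.62 CPM in shCTR. For CCND1 the mean was 38.7 ± 2.83 CPM (SD, n = 2) in shCTR, 52.8 ± 2.70 CPM in shMETTL3 and 19.8 ± 2.78 CPM in shMETTL14. The log2 fold change against shCTR was 0.45 in shMETTL3 (SE 0.0881, edgeR quasi-likelihood adjusted p = 0.00163). In shMETTL14 it was -0.97 (SE 0.0968, edgeR adjusted p = 2.74e-06), a level 51.2% of that in shCTR. Of the bases in CCND1 exons, 10.3% are shared with LTO1 on the opposite strand, which had 497 to 599 reads, and without a stated strand setting the reads of overlapping genes cannot be told apart. In bulk RNA, fewer cells with a transcript and less of it in each cell cannot be told apart either.

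CCND3 (ENSG00000112576, chr6:41934933-42050357, minus strand), which encodes cyclin D3, fell in shMETTL14. It had 333.4 and 367.5 CPM in shCTR, 373.2 and 374.4 CPM in shMETTL3, and 298.6 and 288.2 CPM in shMETTL14. Both shMETTL14 libraries lay below all the others. The shMETTL3 libraries lay just above the higher shCTR library. The log2 fold change against shCTR was -0.26 in shMETTL14 (SE 0.0605, edgeR adjusted p = 0.0130), with a mean of 293.4 ± 7.34 CPM against 350.5 ± 24.2 CPM (SD, n = 2). This call was lost without either shMETTL14 library, with an edgeR adjusted p of 0.0950 without replicate 1 and 0.156 without replicate 2, at log2 fold changes of -0.28 and -0.23. In shMETTL3 the log2 fold change was 0.09 (SE 0.0602, 95% interval -0.03 to 0.22), which did not pass the test (edgeR adjusted p = 0.317).

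CCND2 (ENSG00000118971, chr12:4273772-4305350, plus strand), which encodes cyclin D2, was not called in any comparison. It had 122.9 and 120.5 CPM in shCTR, 113.2 and 119.6 CPM in shMETTL3, and 100.8 and 113.0 CPM in shMETTL14. All 4 knockdown libraries lay below both shCTR libraries, by little in shMETTL3. The log2 fold change against shCTR was -0.19 in shMETTL14 (95% interval -0.33 to -0.04, edgeR adjusted p = 0.114) and -0.06 in shMETTL3 (95% interval -0.21 to 0.08, edgeR adjusted p = 0.565).

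**Figure D1:**
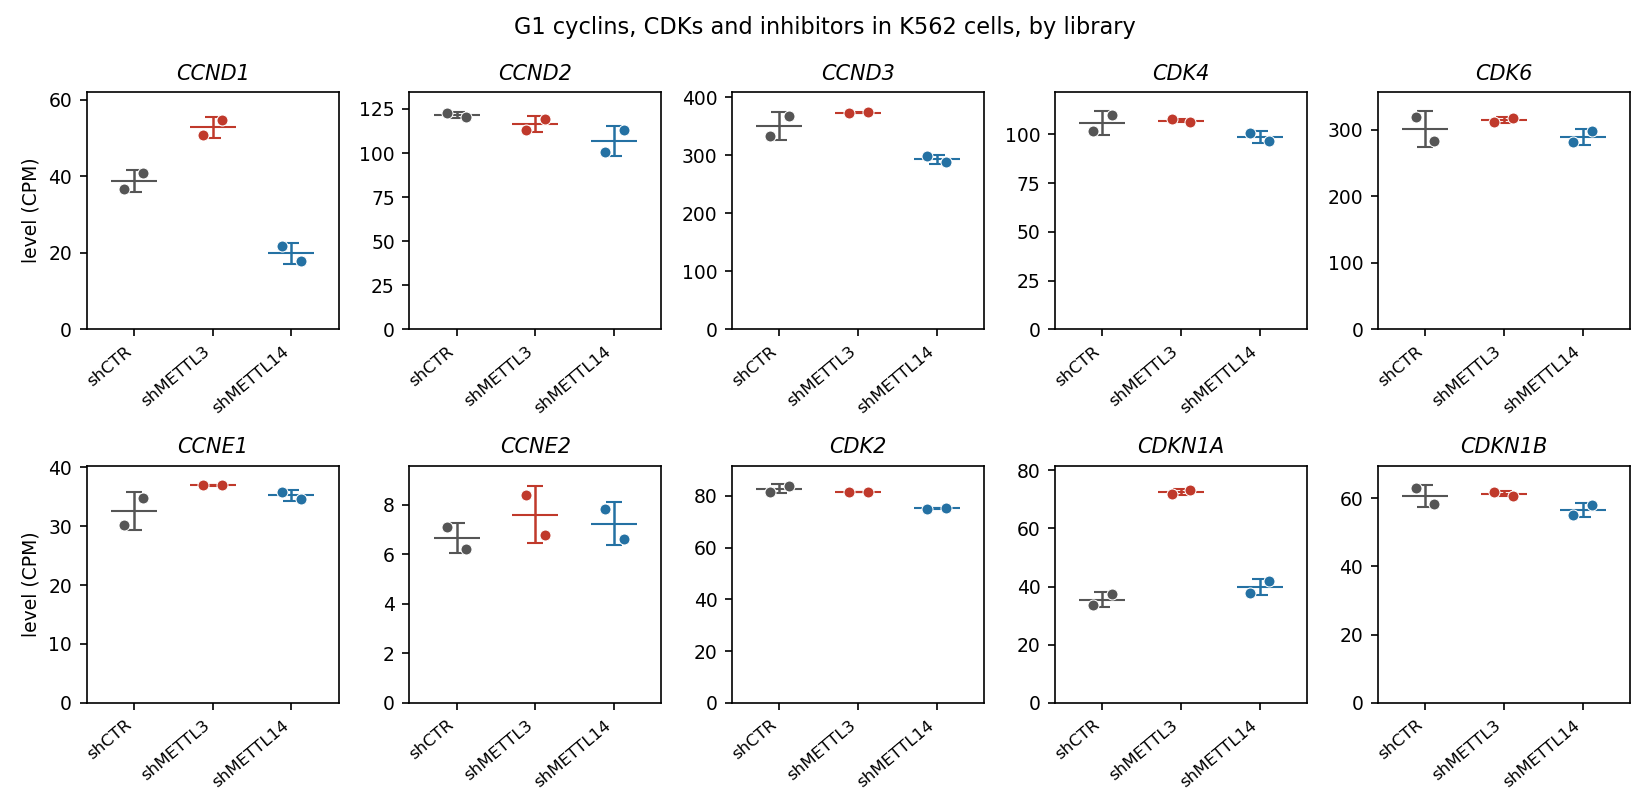
Level of each of the 10 members in CPM (y axes, starting at 0) in the shCTR, shMETTL3 and shMETTL14 libraries (x axes). Points are libraries, and lines and bars are group means ± SD (n = 2). CCND1 has means of 38.7, 52.8 and 19.8 CPM in these groups, and CDKN1A has its highest mean, 72.6 CPM, in shMETTL3. The 3 groups do not overlap for CCND1, CCND2, CCND3, CDK2 and CDKN1A, and the share of all tested genes with such separation was not computed.

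The partner kinases of the D-type cyclins were not called against shCTR. CDK4 (ENSG00000135446, chr12:57747727-57756013, minus strand) had 101.7 and 110.2 CPM in shCTR, 107.9 and 106.5 CPM in shMETTL3, and 101.0 and 96.6 CPM in shMETTL14. The shMETTL14 libraries lay just below the lower shCTR library, and the shMETTL3 libraries lay between the shCTR libraries. Its log2 fold change was 0.02 in shMETTL3 (95% interval -0.12 to 0.15, edgeR adjusted p = 0.896). In shMETTL14 it was -0.10 (95% interval -0.24 to 0.04, edgeR adjusted p = 0.416). The exons of CDK4 share 43.2% of their bases with TSPAN31 on the opposite strand, which had 349 to 440 reads.

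CDK6 (ENSG00000105810, chr7:92604921-92836594, minus strand) had 320.2 and 282.7 CPM in shCTR, 311.7 and 317.8 CPM in shMETTL3, and 281.3 and 298.0 CPM in shMETTL14. The shCTR libraries spanned the levels of both shMETTL3 libraries and of the higher shMETTL14 library. The log2 fold change was 0.06 in shMETTL3 (95% interval -0.07 to 0.20, edgeR adjusted p = 0.556). In shMETTL14 it was -0.06 (95% interval -0.19 to 0.08, edgeR adjusted p = 0.670). The 2 shCTR libraries ordered CDK6 and CCND3 in opposite ways: replicate 1 was the higher for CDK6 and the lower for CCND3. A fitted trend of counts with GC content and transcript length gave CDK6 a log2 offset of 0.09 in shCTR replicate 1 and -0.07 in replicate 2, and CCND3 one of -0.07 and 0.01. With this trend removed, the shMETTL14 log2 fold change was -0.28 for CCND3 (edgeR adjusted p = 3.18e-04) and -0.05 for CDK6 (edgeR adjusted p = 0.560).

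Neither E-type cyclin passed the test. CCNE1 (ENSG00000105173, chr19:29811898-29824308, plus strand), which encodes cyclin E1, had 30.3 and 34.8 CPM in shCTR, 36.9 CPM in both shMETTL3 libraries, and 35.8 and 34.6 CPM in shMETTL14. Its shMETTL3 libraries lay above both shCTR libraries. The log2 fold change was 0.18 in shMETTL3 (SE 0.0843, edgeR adjusted p = 0.151) and 0.11 in shMETTL14 (SE 0.0847, edgeR adjusted p = 0.485). Without shCTR replicate 2 the shMETTL3 difference was 0.28 and passed, with an edgeR adjusted p of 0.0272, and without shCTR replicate 1 it was 0.08, with an edgeR adjusted p of 0.605. CCNE2 (ENSG00000175305), which encodes cyclin E2, was the lowest member, with 7.08 and 6.22 CPM in shCTR, 8.40 and 6.78 CPM in shMETTL3, and 7.84 and 6.63 CPM in shMETTL14. All 3 groups overlapped, and replicate 1 was the higher in each. The 95% interval of its log2 fold change in shMETTL3, -0.15 to 0.53, was the widest in that comparison, and 37.1% of its exon bases are shared with other genes, mostly INTS8 on the opposite strand, which had 1554 to 2170 reads.

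CDK2 (ENSG00000123374, chr12:55966769-55972784, plus strand), the kinase of the E-type cyclins, had 81.6 and 84.0 CPM in shCTR, 81.4 and 81.5 CPM in shMETTL3, and 75.1 CPM in both shMETTL14 libraries. The shMETTL14 libraries lay below the others. It differed from shCTR by -0.02 in shMETTL3 and by -0.14 in shMETTL14 on the log2 scale, and neither difference passed the test, with edgeR adjusted p = 0.844 and 0.219.

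Of the CIP/KIP inhibitors, CDKN1A rose in shMETTL3 and was not called in shMETTL14. CDKN1A (ENSG00000124762, chr6:36676460-36687339, plus strand) had 664 and 716 counts in shCTR, 1413 and 1471 in shMETTL3, and 745 and 820 in shMETTL14. The levels were 33.6 and 37.4 CPM in shCTR, 71.9 and 73.3 CPM in shMETTL3, and 37.9 and 41.8 CPM in shMETTL14. The shMETTL3 libraries stood well above all the others, and the shMETTL14 libraries stood just above shCTR. The log2 fold change against shCTR was 1.03 in shMETTL3 (SE 0.0771, edgeR adjusted p = 2.94e-08), a fold of 2.05, and the gene ranked 17 by p among those tested. In shMETTL14 it was 0.17 (SE 0.0804, edgeR adjusted p = 0.241).

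CDKN1B (ENSG00000111276, chr12:12715058-12722371, plus strand) had 63.0 and 58.4 CPM in shCTR, 61.9 and 60.8 CPM in shMETTL3, and 55.2 and 58.1 CPM in shMETTL14. Its shMETTL14 libraries lay just below shCTR, and those of shMETTL3 lay within it. The log2 fold changes were 0.01 in shMETTL3 (95% interval -0.13 to 0.16) and -0.10 in shMETTL14, with edgeR adjusted p = 0.923 and 0.448.

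**Figure D2:**
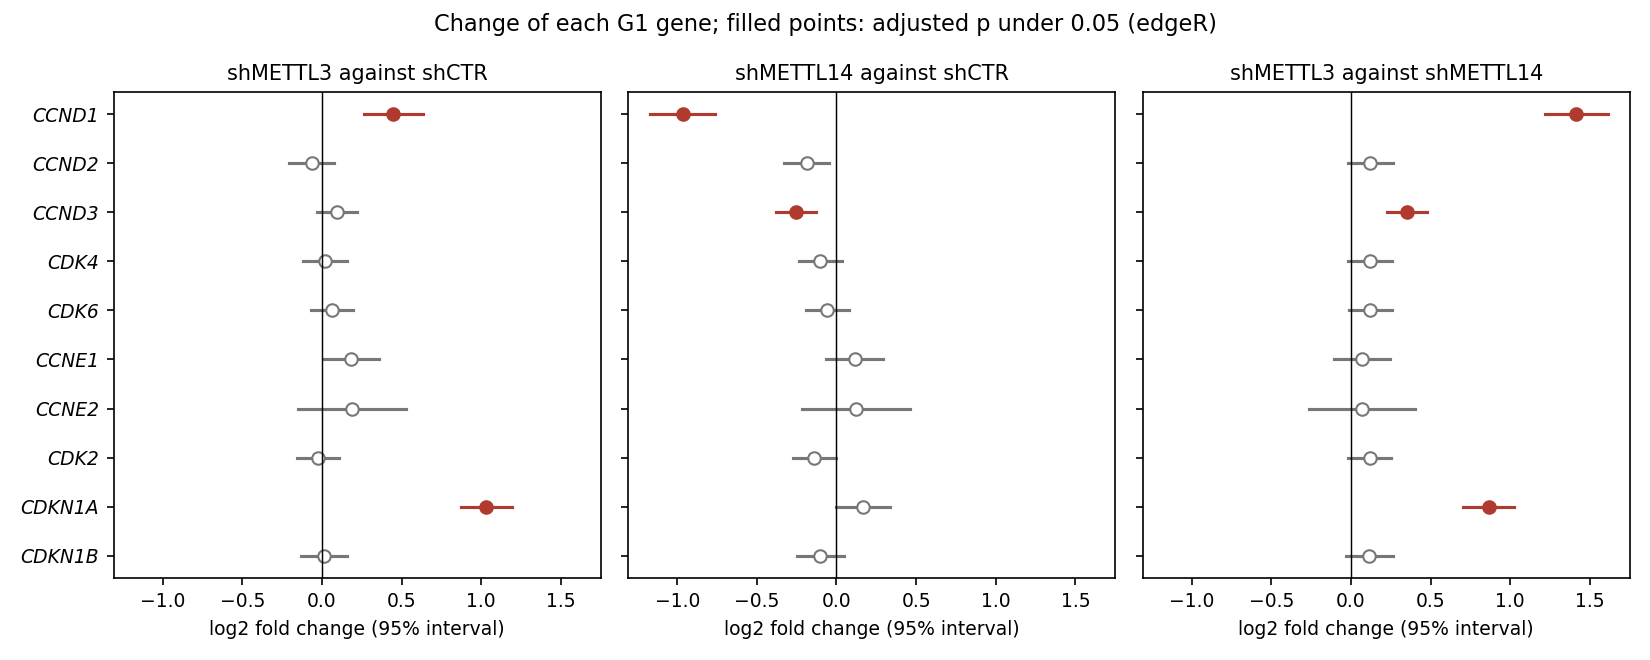
Log2 fold change of each member (x axis) with its 95% interval (bars), for shMETTL3 and shMETTL14 against shCTR and for shMETTL3 against shMETTL14. Filled points passed an edgeR adjusted p of 0.05. CCND1 lies to the right of 0 in shMETTL3 (0.45) and to the left in shMETTL14 (-0.97), CDKN1A lies to the right in shMETTL3 (1.03), and CCND3 lies to the left in shMETTL14 (-0.26).

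Counted together, 2 of the 10 members rose and 0 fell in shMETTL3, where 16.5% of all tested genes were called, 8.73% higher and 7.73% lower. In shMETTL14, 0 rose and 2 fell, where 6.69% of all tested genes were called, 3.43% higher and 3.26% lower. Both comparisons used the same shCTR libraries. Scaled by library size alone, 2158 genes were higher and 858 lower in shMETTL3, against 1544 and 1368 with TMM factors, and 743 were higher and 443 lower in shMETTL14, against 607 and 577. The same members were called in the same direction under both scalings. The median log2 fold change of the members was 0.08 in shMETTL3 and -0.10 in shMETTL14, and that of all tested genes was 0.00 in both. The members not called had log2 fold changes between -0.06 and 0.19 in shMETTL3 and between -0.19 and 0.17 in shMETTL14, with edgeR adjusted p from 0.151 and from 0.114 upwards.

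The 2 knockdowns were also compared directly, in the same fit, which drew on all 6 libraries for its estimate of the spread. Fitted without the shCTR libraries, the same 3 members were called. CCND1 was higher in shMETTL3 than in shMETTL14 by a log2 fold change of 1.41 (SE 0.0946, edgeR adjusted p = 5.11e-09). CDKN1A was higher by 0.86 (SE 0.0761, edgeR adjusted p = 2.18e-07), and CCND3 by 0.35 (SE 0.0605, edgeR adjusted p = 5.27e-04). These 3 members therefore differed between the shMETTL3 and shMETTL14 libraries by a test of the difference itself. An effect of the hairpins and a difference between the lines that carry them cannot be told apart here. In this comparison 12.1% of all tested genes were called, 6.65% higher in shMETTL3 and 5.49% lower. By library size alone these were 1399 and 754 genes, against 1177 and 971. The other 7 members had log2 differences between 0.07 and 0.12, all toward shMETTL3 and none past the threshold.

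Levels of different genes were compared per length, as CPM divided by the kb of each gene's merged exons. In shCTR the order from the highest was CCND3 at 60.4, CDK4 at 33.4, CDK6 at 24.6, CDKN1B at 21.6, CDK2 at 21.3, CCND2 at 17.0, CCNE1 at 12.8, CDKN1A at 11.6, CCND1 at 8.02 and CCNE2 at 1.51. CDKN1B and CDK2 overlapped between the shCTR libraries, as did CCNE1 and CDKN1A, and the other neighbours did not. In shMETTL3 CDKN1A stood at 23.8 on this scale, above CDKN1B at 21.8 and close to CDK6 at 25.7. In shMETTL14 CCND1 stood at 4.10. The order depended on the length used. With the longest transcript as length, CDK2 moved to the third place in shCTR, at 31.9, and in shMETTL3 CDKN1A, at 32.0, lay above CDK2 at 31.3 and CDK6 at 27.1.

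Cyclin D3 made up most of the D-type cyclin mRNA on this scale, at 70.7% in shCTR, 70.3% in shMETTL3 and 72.6% in shMETTL14. CCND2 made up 19.9%, 17.7% and 21.5% in the same order. CCND1 made up 9.38% ± 0.190 (SD, n = 2) in shCTR, 11.9% ± 0.436 in shMETTL3 and 5.89% ± 0.773 in shMETTL14. The summed level of the 3 D-type cyclins was 85.4 ± 4.51 (SD, n = 2) in shCTR, 91.6 ± 1.33 in shMETTL3 and 69.6 ± 0.633 in shMETTL14, and the shMETTL14 libraries lay below all the others. CDK6 made up 42.4%, 43.1% and 43.1% of CDK4 with CDK6, and CCNE1 89.3%, 89.4% and 89.4% of the E-type cyclins, so these compositions differed little. CDKN1A made up 35.0% ± 2.94 of CDKN1A with CDKN1B in shCTR, 52.2% ± 0.652 in shMETTL3 and 39.3% ± 0.799 in shMETTL14. No test was run on these shares. With the longest transcript as length, CCND2 made up 10.8%, 9.63% and 11.5% and CCND1 5.16%, 6.58% and 3.20% in shCTR, shMETTL3 and shMETTL14, and CCND1 kept its order of groups.

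**Figure D3:**
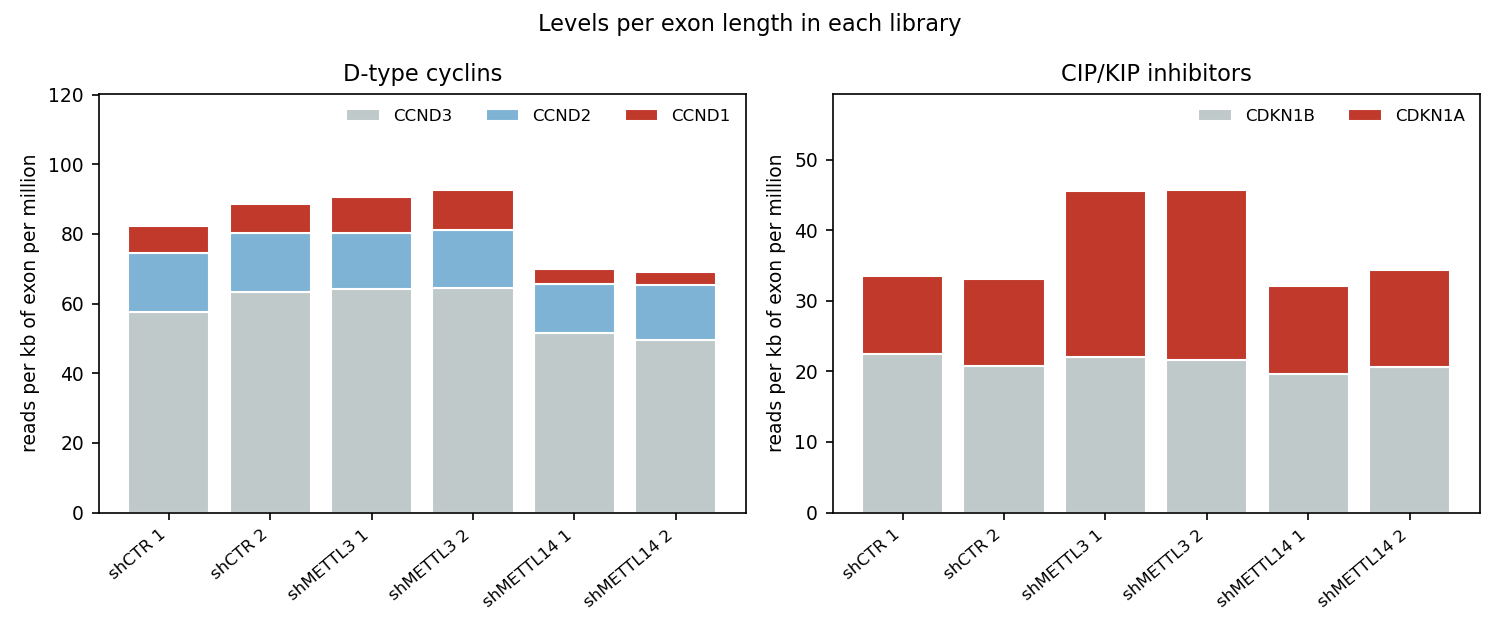
Stacked levels per exon length (y axis, reads per kb of merged exons relative to the library total, from 0) of the 3 D-type cyclins and of CDKN1A with CDKN1B in each of the 6 libraries (x axis). CCND3 makes up most of every D-type bar, from 69.7% to 73.5%, the shMETTL14 bars are the lowest at 70.1 and 69.2, and CDKN1A makes up 51.7% and 52.6% of the shMETTL3 bars.

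The rest of the pathway was described by lists of its other parts. Of 5 other CDK inhibitors 3 could be tested, CDKN1C, CDKN2C and CDKN2D. In each knockdown 1 of these was called, 33.3%, against 16.5% and 6.69% of all tested genes. CDKN1C, which encodes the remaining CIP/KIP protein p57, averaged 83.7 CPM in shCTR and fell in both knockdowns, to 69.9 CPM in shMETTL3 (log2 fold change -0.26, edgeR adjusted p = 0.0106) and to 56.5 CPM in shMETTL14 (-0.57, edgeR adjusted p = 1.88e-05). CDKN1A, CDKN1B and CDKN1C had 3 different sets of calls. CDKN2C had 87.5 and 105.8 CPM in shCTR, 103.1 and 117.6 CPM in shMETTL3, and 113.8 and 113.0 CPM in shMETTL14. CDKN2D had 9.77 and 11.6 CPM, 11.4 and 11.8 CPM, and 12.1 and 12.9 CPM in the same order. Neither was called against shCTR, and the list medians were 0.11 in shMETTL3 and 0.23 in shMETTL14. CDKN2A had 1 read in a single shMETTL14 library and 0 in the other 5, and CDKN2B had 0 in all 6. A count of 0 allows a level of up to 0.157 CPM, from 3 counts in the library where this limit was highest.

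Of 13 RB family, E2F and DP genes, 4 rose and 2 fell in shMETTL3, 46.2% of the list against 16.5% of all tested genes. The list median was 0.05, against 0.00 for all tested genes. E2F1, an activator of S-phase genes, rose by 0.49 (edgeR adjusted p = 8.40e-04) and E2F2, a close relative, by 0.46 (edgeR adjusted p = 0.00239). E2F7, a repressor of the same targets, rose by 0.48. E2F5 rose by 0.34, and the 2 that fell were RBL2 and TFDP2, both named after their values were seen. In shMETTL14, 0 rose and E2F8 alone fell, by 0.39 on the log2 scale (edgeR adjusted p = 0.0242), 7.69% of the list against 6.69% of all tested genes, with a list median of 0.02.

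Of 16 genes for the turnover and activation of G1 cyclin-CDK complexes, 1 rose and 2 fell in shMETTL3, and 0 rose and 2 fell in shMETTL14. These were 18.8% and 12.5% of the list, against 16.5% and 6.69% of all tested genes. CDC25A, the phosphatase that activates CDK2, had 59.8 and 56.7 CPM in shCTR, 31.8 and 32.1 CPM in shMETTL3, and 53.9 and 56.8 CPM in shMETTL14. It fell by 0.86 on the log2 scale in shMETTL3, and its log2 fold change in the direct comparison with shMETTL14 was -0.79 (edgeR adjusted p = 4.33e-07). CDK7, the catalytic subunit of the CDK-activating kinase, fell in both knockdowns, by 0.25 and 0.29. CKS1B, a small CDK-binding subunit, fell by 0.31 in shMETTL14, and FBXO4, an F-box protein linked to cyclin D1 turnover, rose by 0.27 in shMETTL3. The list medians were -0.08 and -0.03.

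Of 19 E2F target genes of the G1/S boundary, 3 rose and 0 fell in shMETTL3, with a list median of 0.10. The share called, 15.8%, was near the 16.5% of all tested genes. RRM2, a ribonucleotide reductase subunit, rose from 107.9 to 149.1 CPM (log2 fold change 0.47, edgeR adjusted p = 3.30e-05). MYBL2, a transcription factor, rose by 0.34, and CDC6, a replication licensing factor, by 0.22. In shMETTL14 TK1, thymidine kinase, rose by 0.29, the only call among the 19 (5.26%, against 6.69% of all tested genes), and the list median was -0.04. Directly compared, 5 were higher in shMETTL3 than in shMETTL14 and 0 lower, with RRM2 at 0.37 and CDC6 at 0.31. These were 26.3% of the list, against 12.1% of all tested genes, 6.65% higher and 5.49% lower.

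**Figure D4:**
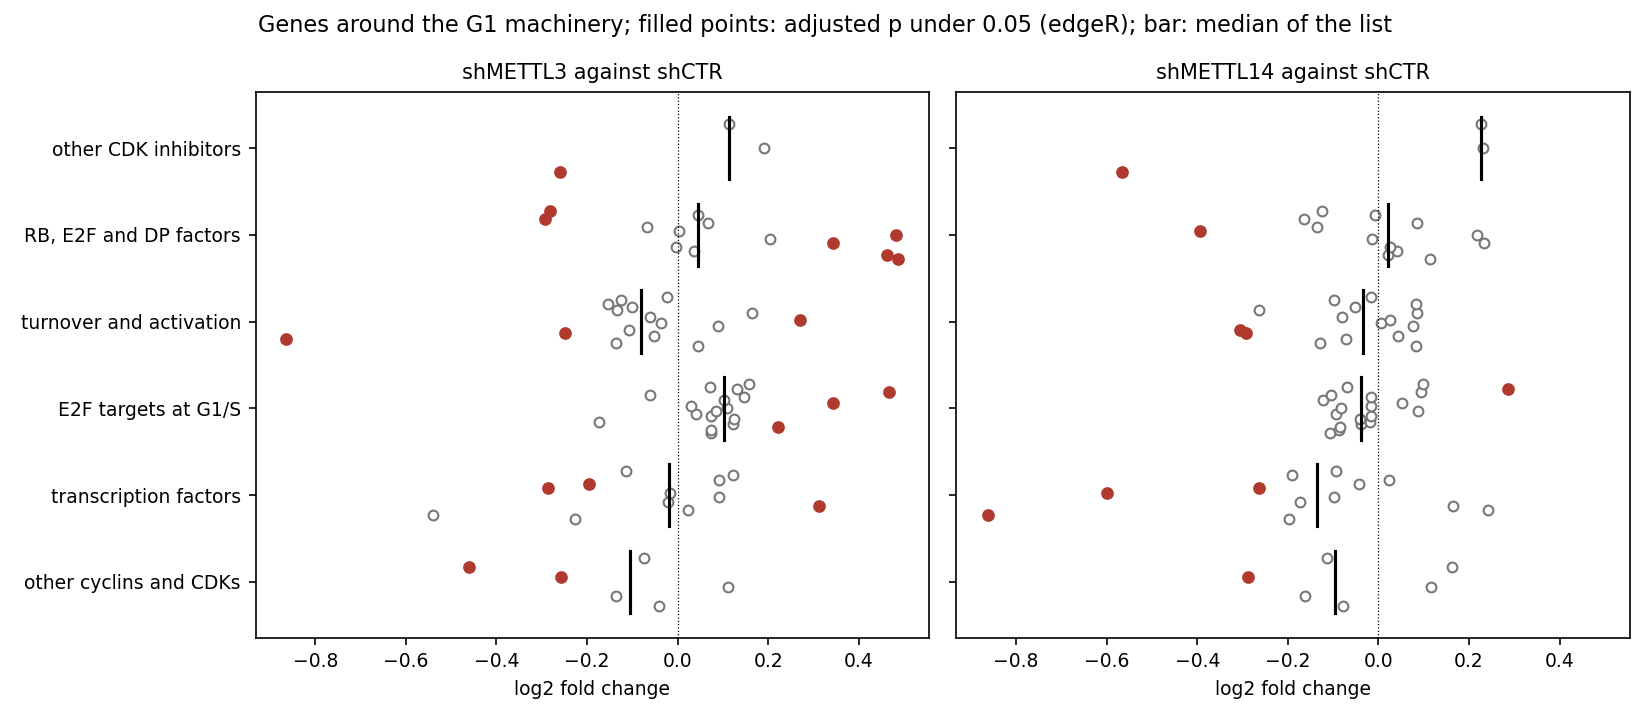
Log2 fold change against shCTR (x axis) of every tested gene of 6 lists around the G1 genes (rows), in shMETTL3 and in shMETTL14. Each point is a gene, filled where it passed an edgeR adjusted p of 0.05, and bars are list medians. CDC25A (-0.86 in shMETTL3) and CDKN1C (-0.57 in shMETTL14) are the lowest called points of their lists.

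The genes whose pattern over the 6 libraries was most like that of CCND1 were GNG7, EPB41L1 and MRAS, with root-mean-square differences of 0.0687, 0.0733 and 0.123 in centred log2 CPM among 12769 genes. MRAS, a RAS-family GTPase, differed from shCTR by 0.37 in shMETTL3 and by -0.84 in shMETTL14 on the log2 scale.

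Across 14 other fits, the 30 results on members, 10 genes in 3 comparisons, kept their direction and their side of the threshold in 408 of 420 cases. In 3 cases, those given above for CCND3 and CCNE1, a result crossed the threshold. In the other 9, differences near 0 changed sign, all of them in results that were not called and remained so, for CDK2, CDK4, CDK6, CDKN1B and CCNE2. With 1 library left out, the log2 fold change of CCND1 ran from 0.37 to 0.52 in shMETTL3 and from -1.12 to -0.83 in shMETTL14, and that of CDKN1A in shMETTL3 from 0.95 to 1.11.

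**Figure D5:**
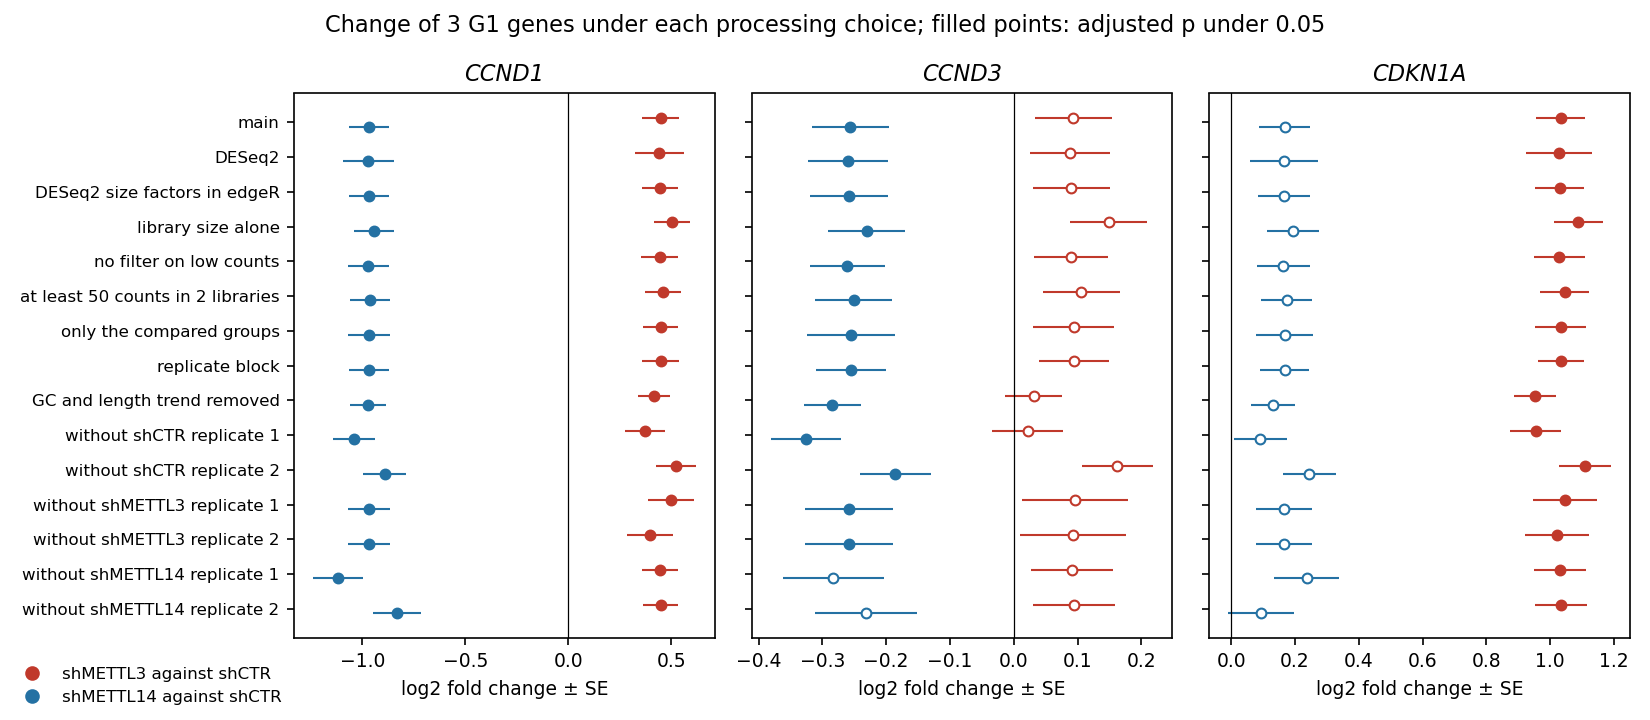
Log2 fold change ± SE (x axes) of CCND1, CCND3 and CDKN1A in shMETTL3 and in shMETTL14 against shCTR, under the main fit and 14 other fits (rows). Filled points passed an adjusted p of 0.05, and each sign holds in all fits. CCND3 in shMETTL14 is the only one of these calls lost, when either shMETTL14 library is left out.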

How the data were processed

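mRNA of K562 cells had been sequenced in 6 libraries, which were assigned to 3 groups of 2 (shCTR, shMETTL3, shMETTL14) from the submitters' labels. The authors deposited 1 table of raw counts, whole reads per gene. Their processing notes name HTSeq 0.6.1 and hg38, and the aligner, annotation release and strand setting are not given in the sources used here. The 986 identifiers without a name held 0.635% to 0.703% of reads and stayed in the library totals.

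Counts were tested in R 4.3.3 with edgeR 4.0.16: filterByExpr (minimum count 10) kept 17686 genes, TMM factors were computed, and quasi-likelihood tests of 3 comparisons came from one fit, with Benjamini-Hochberg adjustment over all tested genes and a threshold of 0.05. Symbols, exons and sequences came from a gene-name table and GENCODE 29 (GRCh38). Fits were tested on simulated data.

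The members and lists were chosen with earlier results of these data known, so no test over a list was made. All members and the 5 other CDK inhibitors were named. Each further list gave up to 4 called genes with the largest change per comparison. For CCND1 the 3 genes with the most similar pattern were named. DESeq2 1.42.0, other scalings, filters, a replicate block, a GC and length trend, and each library left out were tried as alternatives. 1 further gene list is not reported here.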

Additional observations from a re-analysis of the deposited data

Results flagged for a closer look

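Levels of 3 members differed between the METTL3 and METTL14 knockdown libraries, by the direct edgeR test of shMETTL3 against shMETTL14. CCND1 was higher in shMETTL3 by a log2 fold change of 1.41, with all 4 libraries ordered by group, and its differences from shCTR had opposite signs. CDKN1A was higher in shMETTL3 by 0.86, and CCND3 was higher by 0.35. With 1 library left out, the CCND1 difference stayed between 1.28 and 1.56 and that of CDKN1A between 0.79 and 0.94. LYZ, which made up nearly all of the monocytic marker sum, moved the other way (-1.43 in shMETTL3 against shCTR and 0.54 in shMETTL14, on the log2 scale), and its part in these differences was not tested.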

How the results depend on the processing

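No called result on a member changed sign. Among those not called, CDK2 in shMETTL3 was 0.0315 with library size alone, and CDK4 was -0.00635 with the GC and length trend removed. With either shCTR library left out, CDK4 ran from -0.0429 to 0.0733, CDK6 from -0.0274 to 0.153 and CDKN1B from -0.0425 to 0.0671 in shMETTL3, and CDK6 from -0.146 to 0.0348 in shMETTL14. CCNE2 ran from -0.00526 to 0.236 in shMETTL14 with either library of that group left out, and from -0.0919 to 0.219 between the knockdowns with 1 library left out. The cause of these changes of sign was not tested. The members called were unchanged in number by the replicate block (2, 2 and 3 in shMETTL3 against shCTR, shMETTL14 against shCTR and shMETTL3 against shMETTL14), which gave 3264, 1459 and 2478 calls among all genes. Same-numbered libraries did not deviate together (correlations of 0.0552, 0.00712 and -0.0192 over genes), so the numbers were not taken as pairs. DESeq2 called 1752, 713 and 1243 genes, and without a filter 766 genes were called in shMETTL14; the cause was not tested. With 1 library left out, calls among all genes ran from 1102 (without shMETTL3 replicate 2) to 3569, from 341 (without shMETTL14 replicate 1) to 1913 (without shCTR replicate 2), and from 942 (without shMETTL14 replicate 1) to 2953, and members called from 2 to 3, from 1 to 2 and at 3. The split of calls by direction under library-size scaling is given beside the main one. With the GC and length trend removed, the shMETTL3 log2 fold change was 0.95 for CDKN1A and 0.42 for CCND1. With the longest transcript as length, CCND3 made up 84.0% of D-type cyclins in shCTR, CCND1 5.16%, 6.58% and 3.20% in the 3 groups, and CDK6 33.7% of CDK4 with CDK6 in shCTR. Depth limits CCNE2, with 119 to 165 counts, most among the members.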

Other observations

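Of 12 transcription factors that act on G1 genes, 1 rose and 2 fell in shMETTL3, and 0 rose and 3 fell in shMETTL14, with list medians of -0.02 and -0.14. The share called was 25% in each, against 16.5% and 6.69% of all tested genes. MYB fell in both, by 0.29 and 0.26, and MYC fell by 0.20 in shMETTL3, where FOXO3 rose by 0.31. JUN, an AP-1 subunit, had 45.1 and 51.6 CPM in shCTR, 55.3 and 40.4 CPM in shMETTL3, and 29.9 and 33.9 CPM in shMETTL14. It fell by 0.60 in shMETTL14, and FOS, its partner, fell by 0.86. FOS had 9.72 and 6.95 CPM in shCTR, 4.94 and 6.53 CPM in shMETTL3, and 5.80 and 3.37 CPM in shMETTL14. Its counts were low, from 66 to 192 per library. Of 6 other cyclins and CDKs tested, CCNG1 fell by 0.26 and CCNG2 by 0.46 in shMETTL3, and CCNG1 fell by 0.29 in shMETTL14, with list medians of -0.10 in both. These were 33.3% and 16.7% of the 6 genes.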
